A study of Homo sapiens with 4 samples.

Results

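The genes described here are the DDX and DHX RNA helicases, taken as every row of the count table whose symbol is DDX or DHX followed by a number and any closing letters, less 8 genes of that name pattern (DDX58, DHX58, DDX60, DDX60L, DDX21, DDX46, DDX42 and DHX15). The pattern matched 56 of 57992 rows, and 48 genes remained, of which 34 are named DDX and 14 DHX. They were measured in MOLM13, an established human acute myeloid leukaemia line that carries a KMT2A fusion, in a derivative that the labels mark VEN-R, for resistance to the BCL2 inhibitor venetoclax. Every library came from these resistant cells with a doxycycline-induced hairpin RNA. In 2 libraries the hairpin was a control and in 2 it was directed against PRMT9, a protein arginine methyltransferase. Libraries without doxycycline and parental, venetoclax-sensitive cells are not analysed here, so resistance and doxycycline were common to both groups. The labels do not say whether the 2 libraries of a group were separate cultures, repeats of 1 culture or different hairpins, so p-values measure only the spread between these libraries, which may be technical. The comparison asks how the RNA of these helicases differs when PRMT9 is knocked down.

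DEAD-box (DDX) and DEAH-box (DHX) proteins bind RNA and use ATP to unwind short duplexes or to strip proteins from RNA. Ribosome assembly in the nucleolus, many rearrangements of the spliceosome, mRNA export, translation initiation and mRNA decay rely on particular members. DEAD-box enzymes open duplexes locally and are switched by partner proteins such as MIF4G-domain factors, while many DEAH-box enzymes move along RNA and are stimulated by G-patch proteins. The family is named after its motif II, a run of 4 amino acids in the ATP-binding core. The coding sequence around this motif, 60 bases read from GENCODE release 29 transcripts on GRCh38, is shown for 4 members whose RNA levels are described below, 2 named DDX and 2 named DHX, to show what the name refers to. The 12 capitals encode motif II, which is DEAD in DDX18 and DDX5, DEAH in DHX37 and the variant DEIH in DHX9.
DDX18: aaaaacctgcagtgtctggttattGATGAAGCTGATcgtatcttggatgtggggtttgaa
DDX5: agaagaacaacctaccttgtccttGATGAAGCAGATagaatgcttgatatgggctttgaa
DHX37: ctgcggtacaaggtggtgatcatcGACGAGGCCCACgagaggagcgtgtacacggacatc
DHX9: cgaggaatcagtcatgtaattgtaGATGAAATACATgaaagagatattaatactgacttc
The windows lie at chr2:117822168-117822227 (plus strand) in DDX18, chr17:64503221-64503280 (minus strand) in DDX5 and chr12:124971344-124971403 (minus strand) in DHX37, each inside 1 coding exon. The DHX9 window joins coding bases on either side of an intron within chr1:182866993-182872345 (plus strand).

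The libraries held 28592902 to 33845172 counts, of which 6.97% to 7.40% fell on mitochondrial genes. PRMT9 (ENSG00000164169, chr4:147637785-147684230, minus strand) was counted 398 and 406 times under the control hairpin and 81 and 78 times under its own, a log2 fold change of -2.48 (SE 0.12, edgeR quasi-likelihood test, Benjamini-Hochberg adjusted p = 1.13e-11). Levels are given as CPM, counts scaled to library size, and log2 CPM correlated at r = 0.993 and 0.995 across genes within the groups and at 0.966 to 0.968 between them. Of 14 myeloid markers 12 passed the filter on low counts, 11 being higher after PRMT9 knockdown and 1 (MPO) lower, and their summed level was 1908 and 1899 CPM in the controls and 2711 and 2706 CPM in the knockdown. Of 10 lymphoid markers 3 were tested (1 higher, 1 lower, summed 54.3 and 53.7 against 62.4 and 62.5 CPM, with CD2 and CD7 at 0 in all libraries). Of 9 erythroid and megakaryocyte markers 1 was tested and was higher (summed 0.430 and 0.423 against 1.03 and 0.884 CPM), and HBA1, HBB, ALAS2, PF4 and PPBP were at 0. Of 12 epithelial and stromal markers 5 were tested and 4 (VIM, KRT8, KRT18 and PDGFRB) were higher, with a sum of 708 and 727 CPM against 1725 and 1747 CPM, while EPCAM, KRT19 and COL3A1 were at 0. VIM alone gave most of that sum, 680 and 699 CPM in the controls and 1687 and 1709 CPM in the knockdown. These marker sums moved with the group in which the helicases moved, and their part in the helicase results was not tested.

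RNA of most DDX and DHX helicases was lower in the PRMT9 knockdown. Of the 44 members that passed the filter, 34 fell (77.3%), against 34.5% of all 15193 tested genes, and 3 rose (DHX40, DDX3Y and DDX19B), against 33.4% of all tested genes. A change in either direction was called for 37 members, against 68.0% of all tested genes, at an adjusted p below 0.05 in edgeR's test. The falls were moderate, and no member fell 2-fold or more. The median log2 fold change of the tested members was -0.33, against 0.00 over all tested genes. Because lower calls were more frequent among abundant genes, the same counts were taken, after the values had been seen, for genes with a mean of at least 10 CPM. Of 9052 such genes 48.7% were lower and 33.7% higher, with a median of -0.10, while of the 43 such members 34 were lower and 3 higher, with a median of -0.33. In bulk RNA, a smaller share of cells with a transcript and less of it per cell cannot be told apart.

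**Figure D1:**
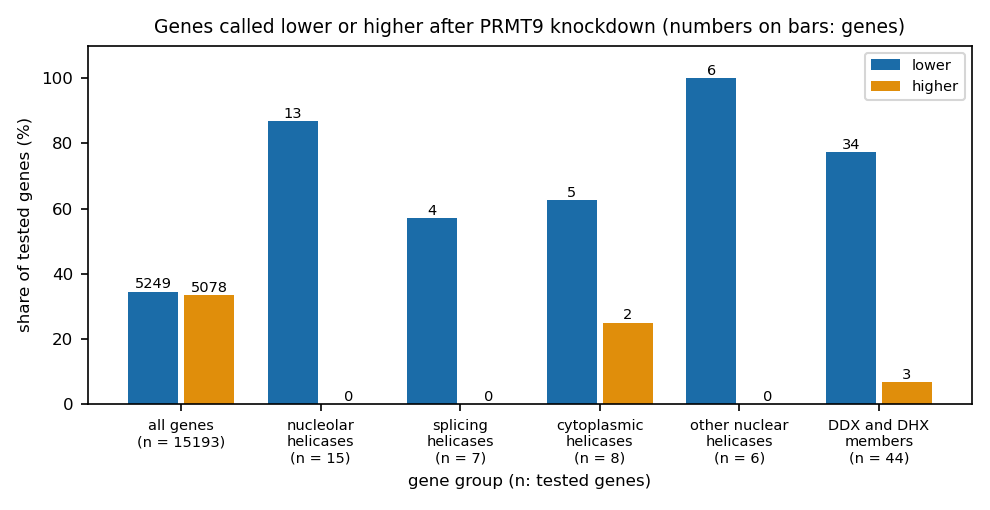
Share of tested genes (%, vertical axis) called lower (blue) or higher (orange) after PRMT9 knockdown for all 15193 tested genes, for 4 classes of helicase and for the 44 tested DDX and DHX members, with the number of genes on each bar. The bars for lower genes stand at 34.5% for all genes and at 77.3% for the members.

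As a share of all counts, the 48 members together made up 0.6229% and 0.6307% in the controls and 0.5003% and 0.4977% in the knockdown, so that the groups did not overlap. The 30 tested genes named DDX had a median log2 fold change of -0.28, with 23 lower and 2 higher. Of the 14 named DHX, 11 were lower and 1 higher, with a median of -0.45, and the difference between the DDX and DHX medians was not tested. In 41 of the 44 tested members the libraries of the 2 groups did not overlap, which held for 83.3% of all tested genes. The 3 members with overlapping groups were DDX27, DDX47 and DDX59.

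**Figure D2:**
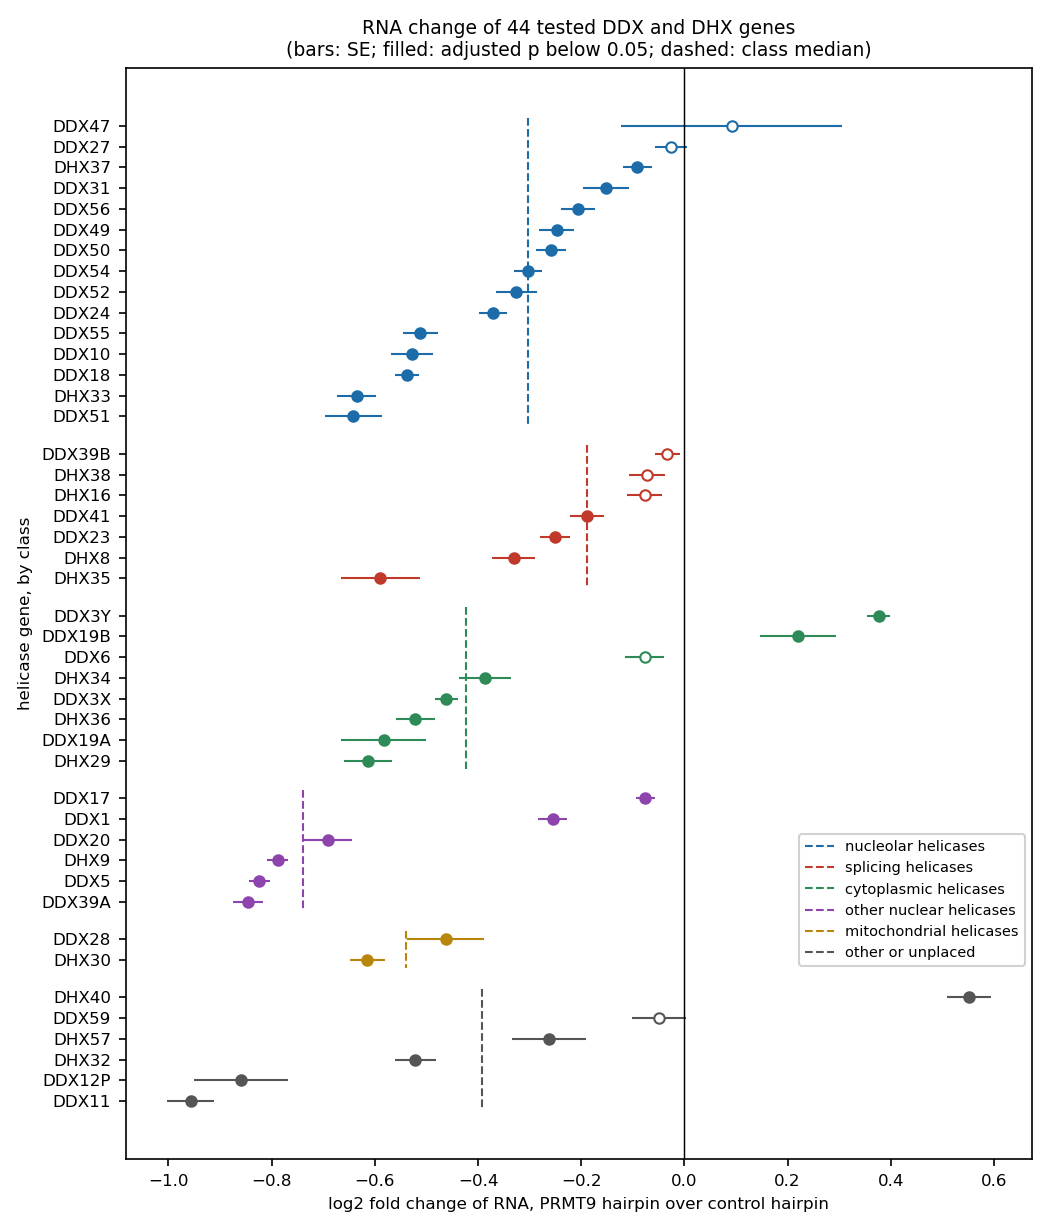
Log2 fold change of RNA (horizontal axis, PRMT9 hairpin over control hairpin) for the 44 tested helicase genes, grouped and coloured by class, with bars for the SE, filled points for an adjusted p below 0.05 and a dashed line for each class median. Points lie mostly left of 0, and only DHX40, DDX3Y and DDX19B are filled points to its right.

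The nucleolar helicases, which act on precursors of ribosomal RNA, were lower almost throughout: 13 of 15 fell, none rose, and the median log2 fold change was -0.30 (range -0.64 to 0.09). The deepest fall was that of DDX51 (ENSG00000185163, chr12:132136594-132144335, minus strand), which helps release the U8 small nucleolar RNA during maturation of the large subunit. DDX51 was at 38.0 and 39.6 CPM in the controls and 25.8 and 23.9 CPM in the knockdown. The groups were well apart, and DDX51 was 1.56-fold lower (log2 fold change -0.64, SE 0.05, edgeR adjusted p = 1.57e-08). DHX33 (chr17:5440912-5469060, minus strand), linked to transcription of ribosomal DNA, went from 82.6 and 80.9 CPM to 54.0 and 51.4 CPM, a log2 fold change of -0.63 (SE 0.04, edgeR adjusted p = 1.69e-10). DDX18 (chr2:117814650-117832379, plus strand), a large-subunit factor related to yeast Has1, had 281 and 278 CPM in the controls and 191 and 194 CPM in the knockdown. Every control library of DDX18 lay above every knockdown library, at a log2 fold change of -0.54 (SE 0.02, edgeR adjusted p = 2.73e-12).

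Falls of similar size were found for DDX10, the counterpart of yeast Dbp4 in small-subunit assembly (-0.53), and DDX55, the counterpart of Spb4 in large-subunit assembly (-0.51). Smaller falls were found for DDX24 (-0.37), DDX52 (-0.33), DDX54 (-0.30), DDX50 (-0.26), DDX49 (-0.25), DDX56 (-0.21) and DDX31 (-0.15), all log2 fold changes with an edgeR adjusted p below 0.05. The call on DDX31 was lost without the first PRMT9 library (log2 fold change -0.13, adjusted p = 0.0529). At the weak end stood DHX37, which releases the U3 small nucleolar RNA from the small-subunit precursor, with 123 and 123 CPM in the controls and 116 and 115 CPM in the knockdown. Its groups were apart, but by little (-0.09, SE 0.03, edgeR adjusted p = 0.00905), and the call was lost without the second control library (-0.08, adjusted p = 0.0601) or the second PRMT9 library (-0.08, adjusted p = 0.0740). In DESeq2 neither DDX31 (adjusted p = 0.111) nor DHX37 (adjusted p = 0.105) was called, and neither was called under upper-quartile scaling (adjusted p = 0.223 and 0.928), which moved the median of all tested genes to 0.09.

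DDX27 and DDX47 were not called. DDX27, a large-subunit factor, had 108 and 112 CPM in the controls and 107 and 109.5 CPM in the knockdown, and its groups overlapped (-0.03, edgeR adjusted p = 0.485). DDX47 had 50 and 50 counts in the controls and 59 and 59 in the knockdown, the lowest counts of any tested member, and a wide error (0.09, SE 0.21, edgeR adjusted p = 0.720). All 1365 coding bases of DDX47 lie in same-strand exons of APOLD1 in GENCODE release 29, as do 36.5% of its 5040 exon bases. APOLD1 itself had 458 and 397 counts in the controls and 985 and 1151 in the knockdown (log2 fold change 1.17). The counting rule for reads in exons of more than 1 gene is not given in the sources used here, so the level of DDX47 is uncertain.

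Of the nucleolar, splicing and cytoplasmic members that the rule keeps, the splicing helicases had the median nearest to 0. Of 7 members, 4 fell, none rose and 3 were not called, with a median log2 fold change of -0.19 (range -0.59 to -0.03). DHX35 (chr20:38962299-39039723, plus strand), found in catalytic spliceosomes, was at 19.5 and 20.1 CPM in the controls and 14.1 and 12.3 CPM in the knockdown. It fell furthest in the class, and its groups did not overlap (-0.59, SE 0.08, edgeR adjusted p = 3.07e-06). DHX8, the counterpart of yeast Prp22 that frees spliced mRNA from the spliceosome, went from 71.1 and 76.4 CPM to 57.5 and 59.7 CPM (-0.33, SE 0.04, edgeR adjusted p = 2.00e-06). DDX23, the counterpart of Prp28 that exchanges U1 for U6 at the 5′ splice site, went from 155 and 159 CPM to 135 and 129 CPM (-0.25, SE 0.03, edgeR adjusted p = 8.27e-07). DDX41, which is mutated in some familial myeloid neoplasms, fell by 0.19 on the log2 scale (edgeR adjusted p = 7.26e-05).

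DHX16, which acts in spliceosome activation, and DHX38, which acts between the transesterifications, were close to the threshold. With DDX6, they were the members nearest to it on the side not called. DHX16, the counterpart of Prp2, had 76.5 and 76.7 CPM in the controls and 72.9 and 72.3 CPM in the knockdown (-0.08, edgeR adjusted p = 0.0557). For DHX38, the counterpart of Prp16, the levels were 84.8 and 86.7 CPM and 83.4 and 79.7 CPM (-0.07, edgeR adjusted p = 0.0745). Neither pair of groups overlapped, and DHX38 passed the threshold without the first control library (-0.10, adjusted p = 0.0420) or the first PRMT9 library (-0.11, adjusted p = 0.0437). DDX39B (UAP56), which acts in branch-site recognition and mRNA export, had 209 and 205 CPM in the controls and 203 and 202 CPM in the knockdown (-0.03, edgeR adjusted p = 0.243). Of its 1529 coding bases 1312 are shared with the readthrough gene ATP6V1G2-DDX39B, which was listed at 0 counts in all 4 libraries. How reads in these shared exons were counted is not given in the sources used here, which limits the level of DDX39B.

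Cytoplasmic helicases went both ways: 5 of 8 fell, 2 rose and 1 was not called, with a median log2 fold change of -0.42 (range -0.61 to 0.38). DHX29 (chr5:55256245-55307722, minus strand), which lets the small ribosomal subunit scan structured leaders, was at 49.3 and 49.6 CPM in the controls and 31.4 and 33.2 CPM in the knockdown. It was 1.53-fold lower, with no overlap of the groups (-0.61, SE 0.05, edgeR adjusted p = 3.65e-09). DDX19A, a helicase of mRNA export at the nuclear pore, went from 16.4 and 14.8 CPM to 10.6 and 10.3 CPM (-0.58, SE 0.08, edgeR adjusted p = 8.48e-06). DHX36, which resolves G-quadruplexes, went from 80.8 and 78.0 CPM to 56.4 and 54.3 CPM (-0.52, SE 0.04, edgeR adjusted p = 2.06e-09). DDX3X, a factor in translation initiation on structured leaders, and DHX34, a factor in nonsense-mediated decay, fell by 0.46 and 0.39 on the log2 scale.

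DDX3Y, the Y-linked relative of DDX3X, and DDX19B, the neighbour of DDX19A on chromosome 16, went the other way. DDX3Y (chrY:12904108-12920478, plus strand) was at 228 and 227 CPM in the controls and 295 and 296 CPM in the knockdown. Both knockdown libraries were above both controls, a 1.30-fold rise (0.38, SE 0.02, edgeR adjusted p = 1.34e-10). DDX19B (chr16:70289663-70335283, plus strand) had 14.6 and 15.2 CPM and 16.6 and 18.0 CPM, a 1.17-fold rise with a wider error (0.22, SE 0.07, edgeR adjusted p = 0.0142). The call on DDX19B was lost without the first control library (0.18, adjusted p = 0.0749), without the second PRMT9 library (0.16, adjusted p = 0.150) and in DESeq2 (adjusted p = 0.204). DDX6, which represses translation and promotes decapping in P-bodies, had 228 and 251 CPM in the controls and 227 and 227 CPM in the knockdown (-0.08, edgeR adjusted p = 0.104). The control libraries of DDX6 differed more from each other than the knockdown libraries did, and without the first control library DDX6 passed the threshold (-0.15, adjusted p = 3.50e-07).

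The median of the nucleolar class thus lay between those of the cytoplasmic and splicing classes, and the share called lower was 86.7% for nucleolar, 62.5% for cytoplasmic and 57.1% for splicing members, against 34.5% of all tested genes and 48.7% of those with a mean of at least 10 CPM. The splicing share, 4 of 7 genes, lies near the latter. Differences between the classes were not tested, their ranges overlapped, and the medians depend on which genes are counted in each. With DDX5, DDX17, DDX20 and DDX39A added to the splicing class its median was -0.25 and 8 members were lower. With DDX1 and DHX57 added to the cytoplasmic class the median was -0.32, and without DDX24, DDX50 and DHX33 the nucleolar median was -0.28. Taken 1 at a time, these changes left the order of the 3 medians as it was. The rule leaves out the splicing helicases DDX46 (-1.03), DHX15 (-0.60) and DDX42 (0.06, not called), which are in no class. DDX21 (-0.98), a helicase of ribosome synthesis, is also left out, and class medians with these genes were not taken.

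Helicases grouped under other nuclear roles, though not all act only in the nucleus, held the members with the largest falls among the abundant ones. All 6 of this class were called lower, with a median log2 fold change of -0.74. DDX39A (chr19:14408819-14419383, minus strand), a paralog of DDX39B in mRNA export, was at 209 and 217 CPM in the controls and 116 and 120.5 CPM in the knockdown. The groups were far apart, and DDX39A was 1.80-fold lower (-0.85, SE 0.03, edgeR adjusted p = 1.44e-13). DDX5 (ENSG00000108654, chr17:64499616-64508199, minus strand), a cofactor of transcription, splicing and microRNA processing, had 672 and 681 CPM in the controls and 379.6 and 385 CPM in the knockdown. DHX9 (ENSG00000135829, chr1:182839369-182887751, plus strand), which unwinds RNA duplexes and RNA-DNA hybrids, had 645 and 661 CPM and 377 and 379 CPM. Neither gene's groups overlapped, and the log2 fold changes were -0.82 (SE 0.02, edgeR adjusted p = 1.79e-15) for DDX5 and -0.79 (SE 0.02, edgeR adjusted p = 4.15e-15) for DHX9. DDX20 (Gemin3), part of the SMN complex that assembles spliceosomal snRNPs, and DDX1, part of the tRNA ligase complex, fell by 0.69 and 0.26 on the log2 scale.

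DDX17, the closest relative of DDX5, had 833 and 853 CPM in the controls and 802 and 798 CPM in the knockdown. The groups were apart but close together (-0.08, SE 0.02, edgeR adjusted p = 0.00181). Under upper-quartile scaling, which moved the median of all tested genes to 0.09, the value for DDX17 moved by a like amount to 0.01 (adjusted p = 0.551). The call was also lost with no filter on low counts or a cut-off of 1 CPM (adjusted p = 0.0531 and 0.0510) and in the 3 limma fits to log2 RPKM (adjusted p = 0.0831 to 0.197), and the value was -0.04 without the second control library (adjusted p = 0.0333). The fall of DDX17 thus depends on the scaling, the filter and the unit.

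**Figure D3:**
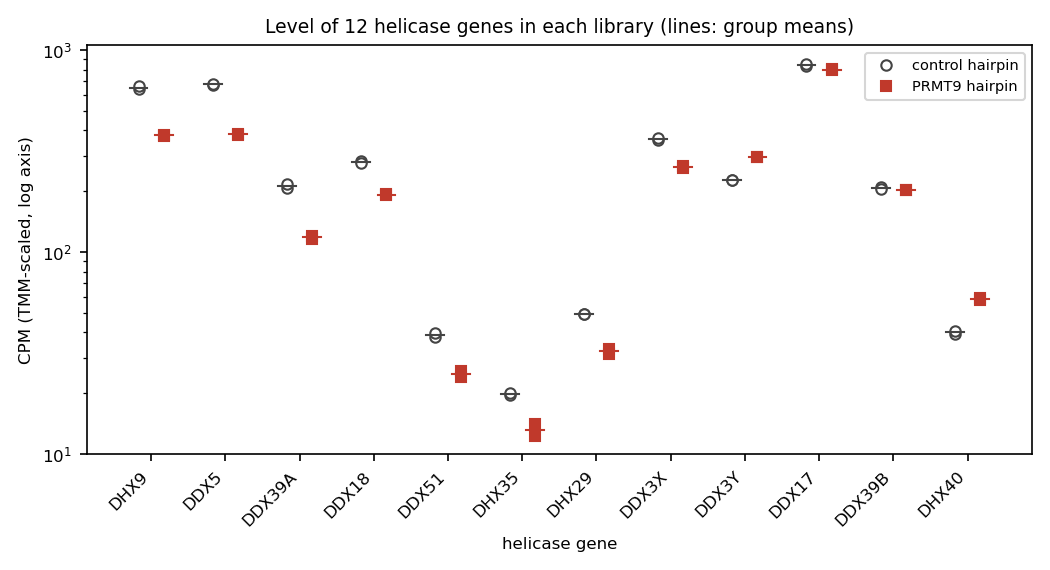
Level of 12 helicase genes in each library (vertical axis, CPM on a log scale), with open circles for control libraries, red squares for PRMT9 knockdown libraries and lines for group means. Libraries of a group lie close together, and the squares stand above the circles for DDX3Y and DHX40 alone.

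Both mitochondrial helicases were lower. DHX30 (chr3:47802909-47850195, plus strand), a factor of mitochondrial ribosome assembly, went from 96.2 and 97.8 CPM in the controls to 62.4 and 64.3 CPM in the knockdown. Its groups did not overlap (-0.61, SE 0.03, edgeR adjusted p = 6.47e-11). DDX28, which acts in the same assembly, fell by 0.46 on the log2 scale, and 19.5% of the 50-base windows of its transcripts match another gene, all of them in DUS2 on the opposite strand.

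Among the 6 members with another role or none assigned, 4 fell, 1 rose and DDX59 was not called (-0.05, edgeR adjusted p = 0.414). DDX11 (chr12:31073845-31104791, plus strand), a DNA helicase of sister chromatid cohesion, showed the largest change of all tested members. It was at 53.9 and 55.4 CPM in the controls and 27.7 and 28.5 CPM in the knockdown, 1.94-fold lower with no overlap (-0.96, SE 0.05, edgeR adjusted p = 9.43e-12). Of the 50-base windows of DDX11 17.7% match another gene, most of them AC009533.1 (14.1%), so that part of its reads cannot be assigned with certainty. DDX12P, annotated as a pseudogene and related to DDX11, changed by -0.86, but 57.7% of its 50-base windows are found in other genes too, and the same doubt applies more strongly. DHX32 and DHX57 fell by 0.52 and 0.26 on the log2 scale. The call on DHX57 was lost without the second control library (-0.15, adjusted p = 0.0757) and without the second PRMT9 library (-0.18, adjusted p = 0.0830).

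DHX40 (chr17:59565525-59608345, plus strand) rose more than any other member, and it is described by library because of that value. It was at 39.2 and 40.9 CPM in the controls and 58.0 and 59.2 CPM in the knockdown. Both knockdown libraries were clearly above both controls, 1.47-fold (0.55, SE 0.04, edgeR adjusted p = 4.63e-09). Of its 50-base windows 14.4% also occur in DHX40P1.

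The 4 remaining members are germline helicases, and none passed the filter. DDX4 (VASA) had 8 and 5 counts in the controls and 4 and 8 in the knockdown, and DDX43 had 2 and 0 against 0 and 1. DDX25 had 1 count in the first control library and none in the others, and DDX53 had 0 in all 4. Counts this low allow no comparison. The other 44 members had at least 50 counts in every library, so none passed the filter through a single group.

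Compared between genes per length, in the deposited RPKM (reads scaled to exon length and library size), the 4 most abundant members over all libraries were DHX9, DDX17, DDX5 and DDX3Y. DHX9 averaged 116 ± 3.94 RPKM in the controls and 66.8 ± 0.450 RPKM in the knockdown (SD, n = 2 in each group here). DDX5 averaged 92.5 ± 2.43 and 52.1 ± 0.587 RPKM. DDX17 averaged 84.3 ± 2.86 and 79.9 ± 0.165 RPKM. The order of these genes in RPKM therefore changed. DHX9 and DDX5 stood above DDX17 in the controls, and DDX17 stood above both in the knockdown, by more than the SDs. This change holds only per length. In mean CPM, DDX17 stood above DDX5 and DHX9 in the controls (843 against 677 and 653) and in the knockdown (800 against 382 and 378). DDX3Y averaged 39.7 ± 0.635 RPKM in the controls and 51.4 ± 0.138 RPKM in the knockdown, where its libraries (51.3 and 51.5 RPKM) lay just under those of DDX5 (51.7 and 52.5 RPKM). In the controls alone, DDX39A (55.4 RPKM), DDX1 (46.8), DDX50 (45.5) and DDX3X (40.7) averaged more than DDX3Y, whose rank over all libraries rests on its level in the knockdown. Ranks between genes depend on the exon length used. For DDX3X that length was 8928 bases, against 15892 exon bases in GENCODE release 29. At the low end of the tested members were DDX47 (0.339 and 0.361 RPKM) and DDX19A (1.98 and 1.32 RPKM).

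Pairs of related helicases changed unequally. The 5 pairs were formed after the single-gene values had been seen, and for each the share of the second gene in the summed CPM of the pair was taken per library. DDX3Y made up 38.7% and 38.3% of the DDX3X and DDX3Y total in the controls and 52.5% and 53.2% in the knockdown. The share of DDX3Y was higher in both knockdown libraries, while the sum went from 588 and 593 CPM to 562 and 556 CPM. DDX17 made up 55.3% and 55.6% of the DDX5 and DDX17 total in the controls and 67.9% and 67.5% in the knockdown, with sums of 1505 and 1534 CPM and 1181 and 1182 CPM. The share of DDX39B beside DDX39A was 50.1% and 48.6% in the controls and 63.7% and 62.6% in the knockdown, and that of DDX19B beside DDX19A 47.1% and 50.6% and 61.1% and 63.6%.

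In these 4 pairs no knockdown library overlapped the controls. The shares restate the single-gene values given above and are not a further result. Among single genes the groups did not overlap for 83.3% of all tested genes, and the share over other gene pairs was not taken. The log2 ratio of the second gene to the first was higher in the knockdown by 0.84, 0.75, 0.81 and 0.79. DDX12P beside DDX11 gave 21.3% and 22.4% in the controls and 24.4% and 21.7% in the knockdown, which overlapped, with a difference of 0.10 in log2 ratio. A 2-sided exact permutation test of 2 libraries against 2 cannot give a p below 0.333, so by that test no share could pass a threshold of 0.05, and no p is given. The log2 ratio of DDX3Y to DDX3X, as an example, was -0.66 and -0.69 in the controls and 0.14 and 0.18 in the knockdown, a difference far larger than the spread within either group. The shares rest on CPM, which is not corrected for length, so they compare libraries and not the genes of a pair.

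**Figure D4:**
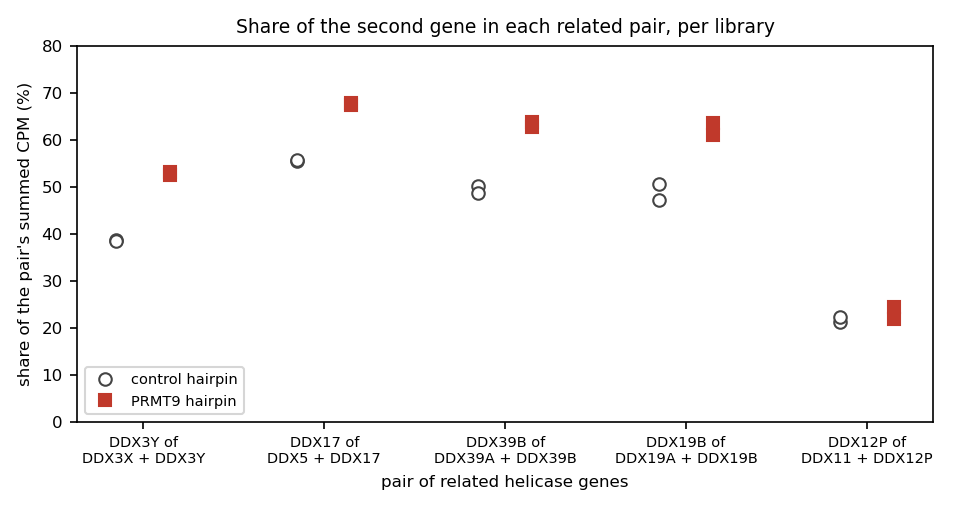
Share of the second gene in the summed CPM of each related pair (vertical axis, %), with open circles for control libraries and red squares for PRMT9 knockdown libraries. The knockdown libraries lie above the controls for DDX3Y, DDX17, DDX39B and DDX19B, and the groups overlap for DDX12P.

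How well reads can separate such genes depends on their sequences, which are compared over 60 coding bases around motif II, for the X- and Y-linked pair and for the most abundant pair. Capitals mark the bases at which the genes of a pair differ, 8 for DDX3X and DDX3Y and 14 for DDX5 and DDX17.
DDX3X: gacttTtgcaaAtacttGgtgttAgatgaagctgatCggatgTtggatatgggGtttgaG
DDX3Y: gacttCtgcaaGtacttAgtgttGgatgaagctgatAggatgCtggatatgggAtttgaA
DDX5: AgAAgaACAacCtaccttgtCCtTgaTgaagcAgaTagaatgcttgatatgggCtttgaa
DDX17: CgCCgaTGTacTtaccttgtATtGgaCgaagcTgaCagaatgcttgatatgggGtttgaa
The windows come from GENCODE release 29 transcripts on GRCh38 and lie within chrX:41344389-41345228 (plus strand, across an intron) in DDX3X, chrY:12915217-12915678 (plus strand, across an intron) in DDX3Y, chr17:64503221-64503280 (minus strand) in DDX5 and chr22:38494919-38494978 (minus strand) in DDX17. Over whole transcripts, 2.03% of the 50-base windows of DDX3X and 0.496% of those of DDX3Y also occur in another gene, so nearly all of their sequence separates them. DDX39A and DDX39B differ at 15 of 60 bases in the same stretch, but 1312 of 1529 coding bases of DDX39B lie in exons of ATP6V1G2-DDX39B. DDX19A and DDX19B differ at none, 23.1% and 33.3% of their 50-base windows occur in other genes, and 1277 of 1577 coding bases of DDX19A and 607 of 1544 of DDX19B lie in exons of AC012184.2. The values of DDX19A and DDX19B are therefore uncertain, since the handling of reads with several matches is not given in the sources used here.

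Since most members fell together, their promoters were searched for 4 motifs chosen after the values had been seen: the E-box CACGTG, the ETS motif CCGGAAG, the cyclic AMP response element TGACGTCA and the CCAAT box, each on both strands. Promoters are the 250 bases before and 50 after the RefSeq start sites on GRCh38.p14. A promoter was found for 43 of 48 members (not for DDX12P, DDX18, DDX49, DDX52 and DHX33), 39 of them tested. A gene was counted when any of its promoters held the motif. CCGGAAG occurred in 21 of these 39 (53.8%), against 22.8% of 9691 tested genes with a promoter and 12.2% of all 27305 genes with a promoter. Among the 29 of these members that fell, it occurred in 13 (44.8%). CACGTG occurred in 8 of the 39 (20.5%), against 12.7% and 8.8%, and in 7 of the 29 that fell (24.1%). CCAAT occurred in 19 (48.7%), against 43.2% and 39.7%, and in 17 of the 29 (58.6%). TGACGTCA occurred in 5 (12.8%), against 3.76% and 2.25%. All 5 (DDX10, DDX19A, DDX28, DDX51 and DHX36) were among the 29 that fell (17.2%). Since 29 of the 39 tested members with a promoter were called lower, nothing is read from their direction. Differences between these shares were not tested. The shares among tested genes with a mean of at least 10 CPM, the level of 43 of the 44 tested members, were not taken.

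3 promoters are shown, that of DDX10, the only one with more than 1 TGACGTCA, the 1 of 3 for DDX5 that holds both CACGTG and the ETS motif, and that of DHX40, the member that rose most. Capitals mark the motifs, and in DDX10 the second TGACGTCA shares its last base with a CCAAT box read on the other strand.
DDX10: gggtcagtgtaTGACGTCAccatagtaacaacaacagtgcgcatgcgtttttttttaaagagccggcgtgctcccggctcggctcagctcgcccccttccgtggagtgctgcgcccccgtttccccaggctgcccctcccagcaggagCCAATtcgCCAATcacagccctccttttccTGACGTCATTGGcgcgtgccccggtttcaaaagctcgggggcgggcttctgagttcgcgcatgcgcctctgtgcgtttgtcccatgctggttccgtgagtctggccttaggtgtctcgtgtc
DDX5: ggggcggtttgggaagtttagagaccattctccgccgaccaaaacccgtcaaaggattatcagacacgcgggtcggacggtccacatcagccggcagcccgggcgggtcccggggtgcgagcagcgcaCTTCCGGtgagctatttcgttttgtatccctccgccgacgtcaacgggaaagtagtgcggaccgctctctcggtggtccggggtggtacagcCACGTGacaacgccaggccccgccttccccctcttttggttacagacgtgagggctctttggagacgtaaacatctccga
DHX40: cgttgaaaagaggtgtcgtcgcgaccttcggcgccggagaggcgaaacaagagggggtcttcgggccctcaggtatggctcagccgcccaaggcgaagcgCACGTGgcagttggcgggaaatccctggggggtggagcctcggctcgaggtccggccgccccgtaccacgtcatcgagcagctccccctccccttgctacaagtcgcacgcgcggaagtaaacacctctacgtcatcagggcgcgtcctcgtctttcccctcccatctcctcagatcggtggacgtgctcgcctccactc
They lie at chr11:108664819-108665118 (plus strand), chr17:64506589-64506888 (minus strand) and chr17:59565360-59565659 (plus strand). DDX10 holds 2 TGACGTCA and 3 CCAAT boxes, DDX5 holds 1 CACGTG and 1 CCGGAAG (as CTTCCGG), and DHX40 holds 1 CACGTG. Of the 8 tested members with CACGTG, 7 were called lower, as were 29 of the 39 tested members with a promoter. DDX5 (-0.82) is among the 7, and DHX40, the member that rose most (0.55), is the other. A link between motif and direction was not tested. A match is a description of the letters, and binding to these promoters was not measured.

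Genes listed as partners of DEAD-box and DEAH-box enzymes had medians nearer to 0 than that of the members, a difference that was not tested. Not all are partners of the members described here, since PDCD4 and EIF4B, for example, act on eIF4A, which is not a member. The counts of these lists stand against 34.5% lower and 33.4% higher among all tested genes, and 48.7% and 33.7% among those with a mean of at least 10 CPM. Of 21 G-patch partners of DEAH-box enzymes, 15 were lower (71.4%) and 2 higher, with a median log2 fold change of -0.16. The lowest were ZGPAT (-0.999) and PINX1 (-0.93), the latter a nucleolar partner, and the higher ones were RBM5 (0.62) and SUGP1 (0.22), both splicing factors. Of 25 partners of DEAD-box enzymes, 17 were lower (68.0%) and 4 higher (median -0.19). SARNP, which was not called, shares 92.9% of its coding bases with same-strand exons of other genes, so its level is uncertain. NOM1, a nucleolar MIF4G protein (-1.24), and ALYREF, the export adaptor that binds DDX39B (-1.10), were the lowest, while PDCD4, an inhibitor of eIF4A (0.96), and EIF4B, its stimulator (0.36), were the highest.

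Of 16 RNA helicases that carry other names, 9 were lower (56.2%) and 3 higher, with a median of -0.15, a share lower that lies near that of the more abundant genes. Among the 9, EIF4A1 (-0.39) shares 86.8% of its coding bases with same-strand exons of other genes, so its level is uncertain. ASCC3 (-0.64) and DICER1 (-0.44) fell furthest, and MOV10 (0.60) and HELZ (0.23) rose most. The 8 genes set aside by the rule gave -1.03 (DDX46), -0.98 (DDX21), -0.60 (DHX15) and 0.06 (DDX42, not called) for the helicases of splicing and ribosome synthesis. The RNA sensors and related genes among them gave 0.47 (DDX60L), 0.74 (DDX58), 0.97 (DDX60) and 1.68 (DHX58), all called higher in edgeR's test.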

How the data were processed

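Poly(A) RNA was sequenced from 2 control-hairpin and 2 PRMT9-hairpin libraries, made with a Kapa mRNA HyperPrep kit from RNA with an integrity number above 8, per the labels' protocols. The authors deposited raw counts per gene and RPKM values of the same genes. Deposited RPKM matched the counts scaled by exon length and by 1 factor per library. Trimmomatic 0.39, STAR 2.7.2a, SAMtools 1.10 and the builds GRCh38 and hg38 appear in the submitters' processing notes with no role stated. What counted the reads, whether strand was used, how reads with several matches were treated and which annotation release applied is not given in the sources used here.

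Counts were filtered with filterByExpr (minimum count 10), scaled by TMM and tested over 15193 genes with the robust quasi-likelihood test of edgeR 4.0.16 in R 4.3.3, and a Benjamini-Hochberg adjusted p below 0.05 was a call. The scripts were tested on simulated data. CPM are TMM-scaled. Alternatives were RLE, upper-quartile and total scaling, other filters, DESeq2 1.42.0, limma 3.58.1 (voom on counts and trend on log2 RPKM), a stricter p of 0.01, a replicate block, each library left out, and other class limits.

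The members, classes, partner lists and markers were chosen with earlier results of these data known. By rule, values per library are given for PRMT9, the 3 highest and 3 lowest log2 fold changes in the nucleolar, splicing and cytoplasmic classes, the largest called change in each other class, and the 4 most abundant members. The 3 uncalled members nearest the threshold, and the 2 highest and 2 lowest called genes of each partner list, are also named. The gene pairs, DHX40, the cut at 10 CPM, the shared-exon check, the sequences shown and the motifs were chosen after the values had been seen. The level of 1 marker gene is not reported here.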

Additional observations from a re-analysis of the deposited data

How the results depend on the processing

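Of the 37 called members, 32 kept their direction and their side of the threshold under all 15 settings other than the stricter p, the exceptions being DDX17, DDX19B, DDX31, DHX37 and DHX57. DDX17 turned to a log2 fold change of 0.0127 (adjusted p = 0.551) under upper-quartile scaling, and its call was also lost without a filter, with a filter at 1 CPM and in the 3 RPKM fits (adjusted p = 0.0510 to 0.197). That scaling moved the median of all tested genes to 0.09 and the splicing median to -0.10, the nucleolar to -0.22 and the cytoplasmic to -0.34. The cytoplasmic median was -0.42 with RLE, -0.41 with library totals, -0.43 without a filter, -0.39 with a filter at 1 CPM, -0.43 in DESeq2, -0.34 on log2(RPKM + 1) with and without its filter, and -0.32 in the wider class. It spanned -0.43 to -0.41 over the fits that left out 1 library. The nucleolar median was -0.27 with a filter at 1 CPM, -0.28 on log2(RPKM + 1) without a filter and -0.28 in the narrower class. The wider splicing class gave a median of -0.25 and 8 lower members. Members called lower numbered 32 to 36, and those called higher 2 to 3, over the fits that left out 1 library, in which a lone library is assumed to vary like the other group.

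The shared replicate numbers do not establish a pairing, since the deviations of same-numbered libraries correlated at -0.03 over 2 pairs. With the number as a replicate block, 35 members were lower and 3 higher, DDX6 passed the threshold (-0.08, adjusted p = 0.0294), and no other member's call changed. PRMT9 stood at -2.49 with the block. Counts under 60, as in DDX47, limit precision.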
